A study of Sus scrofa with 12 samples.

Results

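The genes described here encode subunits, regulators and assembly factors of the proteasome and the UBE2 family of conjugating enzymes, measured in the oxyntic mucosa of 12 piglets. Members were taken by name, as the features of the array whose platform annotation gave a single gene symbol starting with PSMA, PSMB, PSMC, PSMD, PSME, PSMF, PSMG or UBE2, without PSMB8 and PSMB9, and where a gene had several features the one with the highest mean signal stood for it. This gave 40 of 10910 named genes, 23 of the proteasome and 17 of the UBE2 family, out of 80 symbols with these names in the RefSeq gene table of the pig. The other 40 symbols were not analysed here, and so the complexes were seen only in part. The CA group were 6 piglets that received diluted feces of an adult sow on days 3 to 4 after birth (complex association), and the SA group were 6 piglets that received a placebo inoculant instead (simple association). All 12 were delivered by cesarean from crossbred Great York, Pietrain and Dalland sows, received sow serum or colostrum at birth (the methods and the labels differ on which) and a starter mixture of Lactobacillus amylovorus, Clostridium glycolicum and Parabacteroides on days 1 to 3, were fed artificially and were 2 weeks of age at sampling. The labels house the 2 treatments in separate rooms, whereas the methods house piglets of both groups in each room, and litter, sex and room are not labelled per piglet. With separate rooms, a difference between CA and SA piglets cannot be told apart from one between rooms. The labels also describe a perfusion of jejunal loops at a later age than the 2 weeks they give for these piglets, a step that the methods do not give for this trial.

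The proteasome is the protease complex that destroys most short-lived and damaged proteins of the cell. Its barrel-shaped core, the 20S particle, is built from outer rings of alpha subunits (PSMA) and inner rings of beta subunits (PSMB), of which a few carry the proteolytic sites, while the 19S cap (PSMC and PSMD) binds, unfolds and feeds in proteins tagged with ubiquitin. The UBE2 enzymes take activated ubiquitin, or a protein resembling it, and together with a ligase pass it on to the target. The complex is present in every cell type of the oxyntic mucosa, the glandular tissue of the stomach that secretes acid and pepsinogen, and cells that make much protein or divide are known to depend on it.

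Each piglet was measured on 1 Affymetrix porcine gene array, and the array medians lay between 55.6 and 57.6 on the linear intensity scale. Levels below are log2 intensities, and since each feature has its own response to RNA, no level is set against that of another gene. Genes known from the labelled tissue gave signal, with none of those measured below the median feature of the array. Mean log2 intensities of 10 parietal cell genes ran from 7.00 to 12.0, the highest in ATP4A. Those of 3 chief cell genes ran from 5.95 to 12.3, the highest in the pepsinogen gene PGA5. The 4 measured smooth muscle genes had signal as well, at 9.28 to 11.4. By sign all 10 of these parietal cell genes were higher in the CA piglets, where 5747 of all 10910 genes were. In the limma fit described below, 0 of them passed after adjustment over all genes. At an unadjusted p under 0.05 from limma stood 5 of the 10, all higher in CA, against 2.06% of all genes. The median log2 fold change of these 10 genes was 0.37, against 0.01 in all genes. Their summed linear intensity overlapped between the groups, at 12000 to 15870 in the CA and 9841 to 16240 in the SA piglets. The RNA came from pieces of mucosa, where fewer cells of a type and less RNA per cell cannot be told apart. CA piglet 4 had an unusual array, which limma gave a weight of 0.266 where the other 11 arrays had 0.692 to 1.56.

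To compare this machinery between the groups, the log2 intensities of CA and SA piglets were fitted gene by gene with limma, with Benjamini-Hochberg adjustment over all 10910 genes. No proteasome or UBE2 gene passed the test (adjusted p = 0.999 for the lowest, from limma), as was so for all genes (0%). Most of them nevertheless had a lower mean in CA than in SA. By sign, 17 of 23 proteasome genes and 13 of 17 UBE2 genes had a lower mean in CA, where 47.3% of all genes did, and the median log2 fold change was -0.05 in the proteasome genes, -0.06 in the UBE2 genes and 0.01 in all genes. Among the 6273 genes at or above the median feature of the array, 52.2% were lower, as were 30 of the 38 members there. These counts are not of independent genes, since many members varied together over the same piglets, as given below. As a mean deviation from the 12 piglets, the proteasome list ran from -0.16 to 0.05 in the CA piglets. In the SA piglets it ran from -0.11 to 0.10, so that the groups overlapped. The differences were small, and the median SD within groups was 0.139 in the members and 0.160 in all genes. A log2 fold change of -0.1 or below was seen in 13 of the 40 genes, against 13.0% of all genes, and one of 0.1 or above in 2 of the 40, against 15.1% of all genes. At an unadjusted p under 0.05 from limma stood 2 of the 40, against 3.28% of all genes, namely PSMA3, lower in CA like 1.22% of all genes at this p, and PSMA8, higher in CA like 2.06%. No gene among the 40 had CA and SA values that did not overlap, which 0.128% of all genes had. The 95% intervals of the 40 log2 fold changes lay between -0.56 and 0.33, so that larger differences than these were outside the interval of every member.

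**Figure D1:**
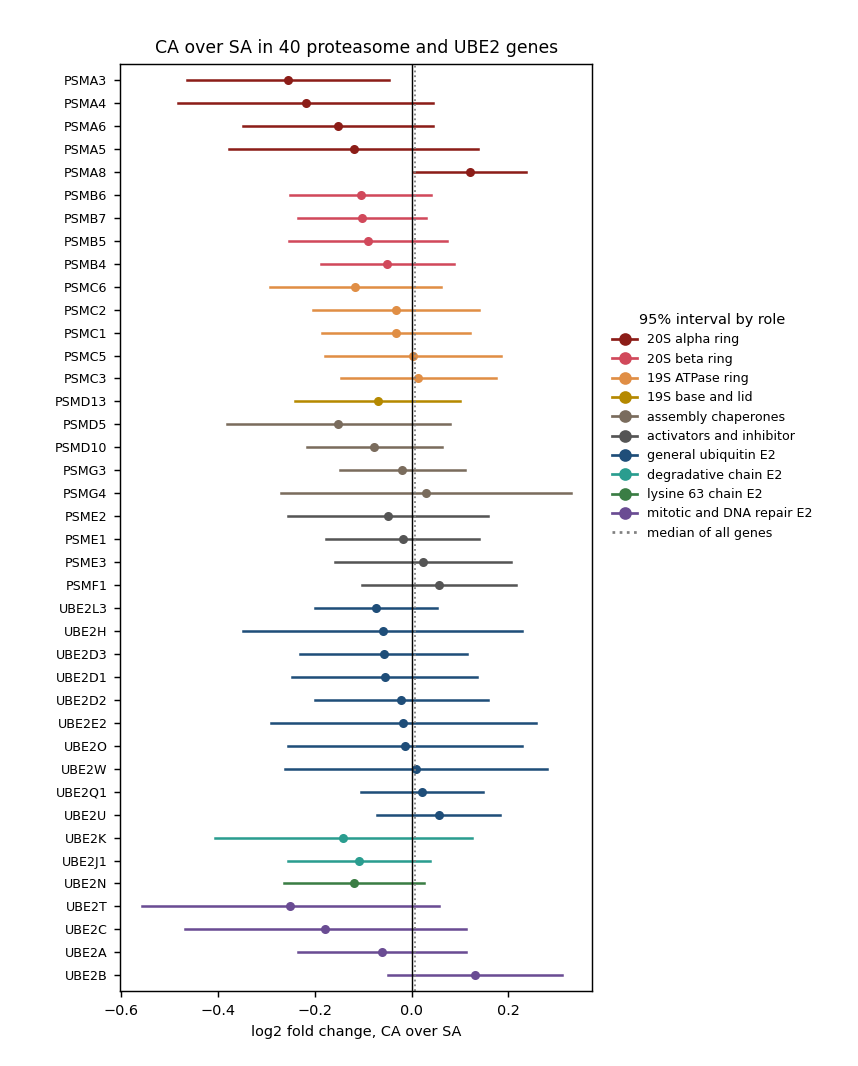
Log2 fold change of each of the 40 genes, CA over SA (horizontal axis), with its 95% interval from limma (lines), in blocks of role from top to bottom; the dotted line is the median of all 10910 genes. The points of the 20S rings lie left of 0 with the exception of PSMA8, and the intervals of PSMA3 and PSMA8 alone leave out 0.

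Of the 9 measured subunits of the 20S core, 8 were lower in CA by sign, where 47.3% of all genes were, and PSMA8 was higher. PSMA3, a subunit of the alpha ring, had log2 intensities of 8.79, 9.26 and 9.33 (lowest, median, highest) in the CA piglets and of 9.24, 9.45 and 9.66 in the SA piglets. All 6 CA values lay below the SA median, while the ranges overlapped through SA piglet 9 alone. Here and below, the share of all genes with 6 values on 1 side of the other group's median was not counted. The group means were 9.19 ± 0.20 in CA and 9.45 ± 0.14 in SA (SD, n = 6 each), a log2 fold change of -0.26 (standard error 0.10, 95% interval -0.47 to -0.05, unadjusted p = 0.0201 from limma), or 0.84-fold. Without SA piglet 12 the unadjusted p was no longer under 0.05. PSMA4, another subunit of this ring, ran from 8.60 over a median of 9.24 to 9.43 in CA and from 9.11 over 9.38 to 9.49 in SA, a log2 fold change of -0.22 (standard error 0.12). Both genes were lowest in CA piglet 4, and without this piglet their log2 fold changes became -0.17 and -0.11.

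Further along the alpha ring, PSMA6 showed the same side with less difference. Its log2 intensities were 8.99, 9.26 and 9.37 (lowest, median, highest) in CA and 9.16, 9.38 and 9.70 in SA, a log2 fold change of -0.15 (standard error 0.09), with all 6 CA values below the SA median. Without SA piglet 11, the highest, it became -0.09. PSMA5 averaged 8.05 ± 0.25 in CA and 8.17 ± 0.19 in SA (SD, n = 6 each), a difference smaller than the spread between piglets. In contrast to PSMA3, PSMA4 and PSMA6, its highest value of all 12 was in CA piglet 4 (8.43). PSMA8, a subunit known from the proteasome of the testis, stood at 2.80 ± 0.07 in CA and 2.68 ± 0.05 in SA, a log2 fold change of 0.12 (standard error 0.05, unadjusted p = 0.0431 from limma). All 6 CA values lay above the SA median, with overlapping ranges. Its feature was among the dimmest of the array, with only 2.70% of all features below it, so that its difference concerns a signal near the background.

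The beta ring was represented by 4 subunits, of which all lay lower in CA by sign. PSMB5, PSMB6 and PSMB7 carry the proteolytic sites of the standard core, of chymotrypsin-like, caspase-like and trypsin-like type. PSMB7 had log2 intensities of 9.33, 9.52 and 9.58 (lowest, median, highest) in CA and of 9.45, 9.59 and 9.67 in SA, a log2 fold change of -0.10 (standard error 0.06). PSMB6 ran from 10.22 over 10.27 to 10.38 in CA and from 10.19 over 10.40 to 10.53 in SA, with a log2 fold change of -0.10 (standard error 0.07). In both genes the 6 CA values lay below the SA median, while SA piglet 9 fell among the CA values of PSMB7 and below those of PSMB6. For PSMB6 the CA piglets were also closer together (SD 0.05) than the SA piglets (SD 0.14). PSMB5 averaged 9.42 ± 0.07 in CA and 9.51 ± 0.16 in SA (SD, n = 6 each), a log2 fold change of -0.09 that became -0.04 without SA piglet 12, the highest at 9.78. PSMB4, a beta subunit without a proteolytic site, was at -0.05 as a log2 fold change (standard error 0.06).

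In the 19S cap the groups lay closer together. Of 5 measured ATPases, which form the ring that unfolds the substrate, 3 were lower and 2 higher in CA by sign, with a median log2 fold change of -0.03. PSMC6 had log2 intensities of 8.48, 8.88 and 8.95 (lowest, median, highest) in CA and of 8.83, 8.89 and 8.98 in SA, a log2 fold change of -0.12 (standard error 0.08). Its lower mean in CA came with low values in CA piglets 1 and 4 (8.62 and 8.48), and without CA piglet 4 it became -0.06. PSMC1 and PSMC2 had log2 fold changes of -0.03 each (standard errors 0.07 and 0.08), PSMC3 one of 0.01 (0.07) and PSMC5 one of 0.00 (0.08). PSMD13, a subunit of the lid, was at 8.81 ± 0.12 in CA and 8.88 ± 0.15 in SA (SD, n = 6 each). The intervals of these 6 genes reached from -0.29 to 0.18.

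Genes of assembly and of regulation went both ways. PSMD5, a chaperone that guides the assembly of the 19S base, had log2 intensities of 8.38, 8.63 and 8.95 (lowest, median, highest) in CA and of 8.48, 8.80 and 9.01 in SA, a log2 fold change of -0.15 (standard error 0.11). PSMD10, known as gankyrin, which acts at the same step, was at 8.46 ± 0.10 in CA and 8.54 ± 0.10 in SA (SD, n = 6 each). PSMG3 and PSMG4, chaperones of the alpha ring, lay at -0.02 (standard error 0.06) and 0.03 (standard error 0.14) as log2 fold changes. PSMG4 was one of the most variable members, and its 12 values were between 6.31 and 6.73 with the exception of CA piglet 4 at 7.23. Without this piglet its log2 fold change became -0.10. PSMF1, a protein that inhibits the core in vitro, averaged 8.90 ± 0.15 in CA and 8.84 ± 0.08 in SA, and PSME3, an activator of the nucleus, 9.91 ± 0.19 in CA and 9.89 ± 0.09 in SA.

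PSME1 and PSME2 form the activator that interferon gamma induces, and they are neighbours of the immunoproteasome genes in this response. PSME2 ran from 9.18 over a median of 9.40 to 9.64 in CA and from 9.12 over 9.51 to 9.65 in SA, a log2 fold change of -0.05 (standard error 0.10), with PSME1 at -0.02 (standard error 0.07). PSMB9, which replaces a standard proteolytic subunit in immune cells and under interferon, lay between 6.14 and 6.48 in the CA piglets and between 6.05 and 7.30 in SA, a log2 fold change of -0.36 (standard error 0.21). PSMB8, of the same kind but below the median feature of the array, was at -0.19 (standard error 0.13). In both genes SA piglets 8 and 10 were above the other 10 piglets, at 7.28 and 7.30 for PSMB9, whereas PSME2 in these piglets, at 9.49 and 9.57, lay within the range of the CA piglets.

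**Figure D2:**
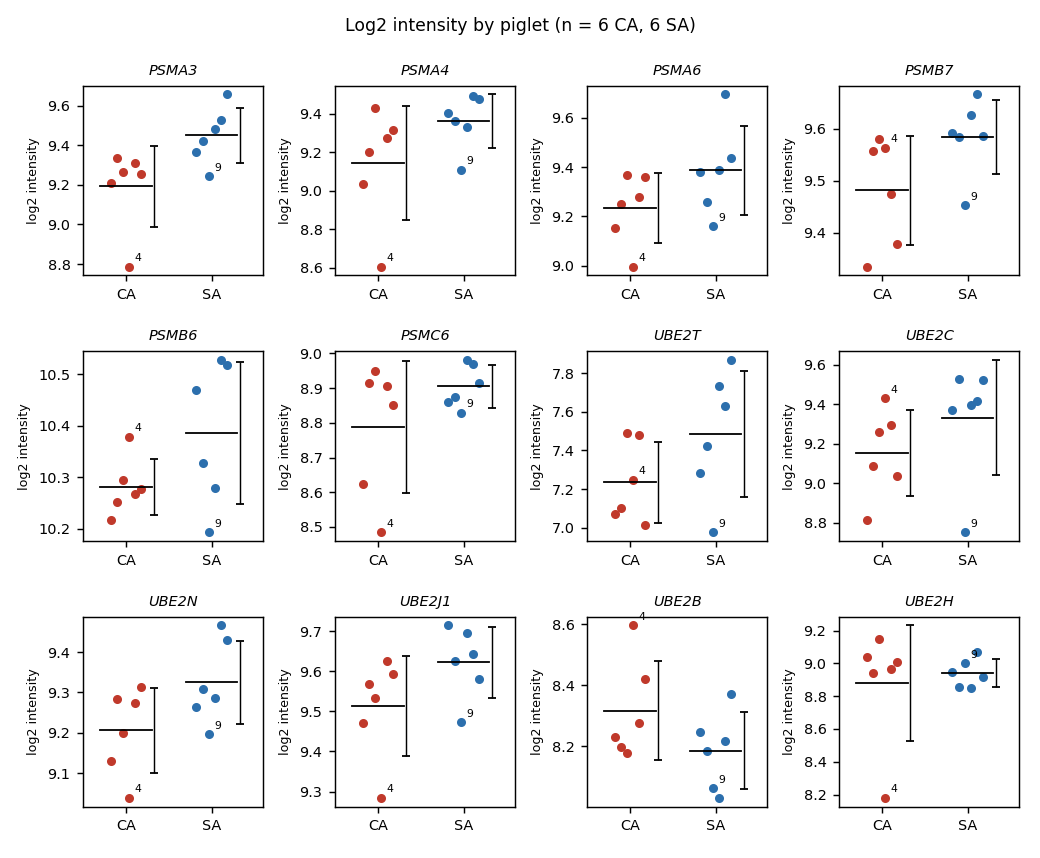
Log2 intensity (vertical axes) of 12 members in each CA and SA piglet (points), with the group mean (horizontal line) and 1 SD (bar beside it), n = 6 each; the numbers mark CA piglet 4 and SA piglet 9. In PSMA3, PSMA6, PSMB7, PSMB6, UBE2T and UBE2J1 the 6 CA points lie below the SA median, and the ranges overlap in all 12 genes. The share of all genes with 6 CA values below the SA median was not counted.

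Among the UBE2 enzymes, UBE2T and UBE2C of mitosis and DNA repair had the lowest log2 fold changes. UBE2B of the same role had the highest, while UBE2A lay between. UBE2T, which attaches single ubiquitins in the Fanconi anemia pathway of DNA repair, had log2 intensities of 7.01, 7.18 and 7.49 (lowest, median, highest) in the CA piglets and of 6.97, 7.53 and 7.87 in the SA piglets. All 6 CA values lay below the SA median, and the lowest of all 12 was in SA piglet 9. The log2 fold change was -0.25 (standard error 0.14, 95% interval -0.56 to 0.06), and -0.35 without SA piglet 9. UBE2C, the enzyme of the anaphase-promoting complex that starts ubiquitin chains on cyclin B, ran from 8.82 over 9.17 to 9.43 in CA and from 8.75 over 9.41 to 9.53 in SA, a log2 fold change of -0.18 (standard error 0.13). Here 5 of the 6 SA values were at 9.37 or above and SA piglet 9 was at 8.75, and the log2 fold change became -0.29 without this piglet and -0.11 without CA piglet 1.

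UBE2A and UBE2B are close relatives that act with the ligase RAD18 in the tolerance of DNA damage, and their means lay on opposite sides. UBE2B averaged 8.32 ± 0.16 in CA and 8.19 ± 0.13 in SA (SD, n = 6 each), the highest log2 fold change of the 40 genes at 0.13 (standard error 0.08), while UBE2A had one of -0.06 (standard error 0.08). Without CA piglet 4 that of UBE2B became 0.08. The value of UBE2B depended on the feature. On its second, dimmer feature the log2 fold change was -0.01, and CA piglet 4, the highest of all on the brighter feature (8.60), was the lowest on the dimmer one, at 4.86 against 6.12 to 7.03 in the other 11 piglets. The other 3 genes with 2 features were PSMA5, whose second feature was near the background (2.85), UBE2J1, at -0.11 and -0.05 on its brighter and dimmer feature, and UBE2O, at -0.01 and -0.03.

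Markers of dividing cells moved with the mitotic enzymes and with the 20S core. All 9 measured markers, such as CDK1, TOP2A and CCNA2, lay lower in CA by sign, with a median log2 fold change of -0.20, none of them past the test, and with none below the median feature of the array. Their summed linear intensity ranged from 2445 to 3837 in the CA and from 2277 to 3617 in the SA piglets. As a mean deviation from the 12 piglets on the log2 scale, these markers were highest in CA piglet 3 (0.33) and lowest in SA piglet 9 (-0.40), each against the side of its group. The 8 genes of the 20S core other than PSMA8 stood at 0.06 in that CA piglet and at -0.15 in that SA piglet. PSMA8 was set aside from the core after its values were seen. Parietal cell genes ran the other way, at -0.23 in CA piglet 3 and 0.50 in SA piglet 9. The 4 measured smooth muscle genes were lowest in SA piglet 9 (-0.77) and highest in SA piglet 11 (0.79), the piglet in which the core was highest (0.20). Other piglets went the other way. In CA piglet 1 the smooth muscle genes stood at 0.55 with the core at its lowest (-0.16), and in CA piglet 3 at -0.40 with the core at 0.06. The part of dividing, parietal and smooth muscle cells in the differences of the members was not tested.

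**Figure D3:**
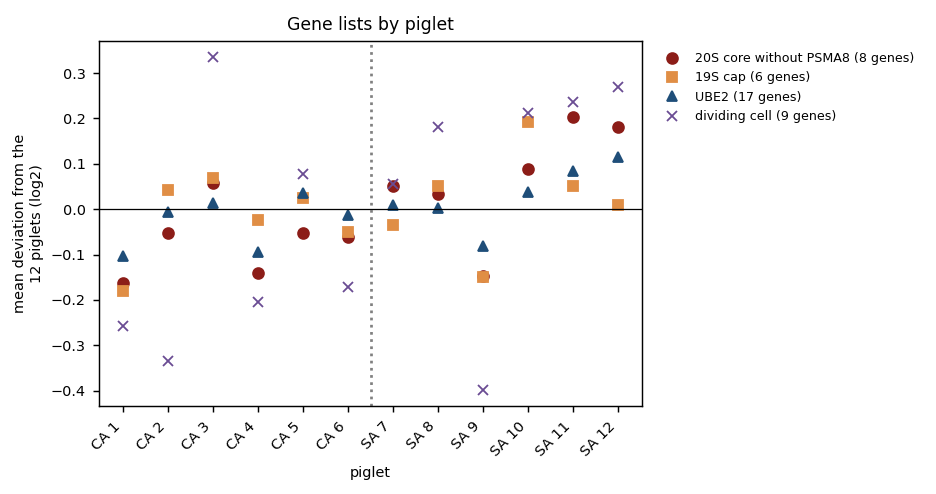
Mean deviation of each piglet from the mean of the 12 piglets (vertical axis, log2 intensity) for 8 genes of the 20S core, 6 of the 19S cap, 17 of the UBE2 family and 9 markers of dividing cells, CA piglets left of the dotted line and SA piglets right of it. SA piglet 9 lies below 0 and CA piglet 3 above 0 in all 4 lists.

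The remaining UBE2 enzymes of ubiquitin chains had lower means in CA. UBE2N, which builds the signaling chains used in innate immunity and DNA repair, had log2 intensities of 9.04, 9.24 and 9.31 (lowest, median, highest) in CA and of 9.20, 9.30 and 9.47 in SA, a log2 fold change of -0.12 (standard error 0.07). UBE2J1, an enzyme of the endoplasmic reticulum membrane that helps to remove misfolded proteins, had values of 9.28, 9.55 and 9.63 in CA and of 9.47, 9.63 and 9.71 in SA, a log2 fold change of -0.11 (standard error 0.07), or -0.06 without CA piglet 4. UBE2K, which extends chains for degradation, averaged 8.75 ± 0.31 in CA and 8.89 ± 0.12 in SA (SD, n = 6 each). Its lower mean in CA went with CA piglet 4 (8.17), and its log2 fold change of -0.14 became -0.03 without this piglet.

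Among the 10 enzymes of broad use, 7 were lower and 3 higher in CA by sign, with a median log2 fold change of -0.02 and no value at or beyond 0.1 in either direction. UBE2L3, the partner of ligases such as parkin, had the smallest p of them, with 10.29, 10.49 and 10.61 (lowest, median, highest) in CA and 10.51, 10.53 and 10.63 in SA, a log2 fold change of -0.07 (standard error 0.06). All 6 SA values lay above the CA median, and CA piglet 1 was the lowest. UBE2D1, UBE2D2 and UBE2D3, which work with many ligases, were at -0.06, -0.02 and -0.06 as log2 fold changes (standard errors 0.09, 0.08 and 0.08). UBE2D3 was at 10.07 in CA piglet 4 and at 10.27 to 10.57 in the other 11 piglets, and without this piglet its log2 fold change was -0.0006. UBE2H, known from the maturation of red blood cells, was set apart by a single piglet, with 8.18 in CA piglet 4 and 8.85 to 9.15 in the other 11. Its log2 fold change of -0.06 (standard error 0.13) became 0.08 without this piglet. UBE2E2, UBE2O, UBE2Q1 and UBE2W had log2 fold changes between -0.02 and 0.02. UBE2E2 held both of its extremes in the SA group, with 6.21 in SA piglet 10 and 7.19 in SA piglet 11, while its CA values lay between 6.49 and 6.73. UBE2W, which attaches ubiquitin to the first residue of a protein, was spread alike in both groups (SD 0.24 in CA and 0.24 in SA). UBE2U, at 3.01 ± 0.09 in CA and 2.95 ± 0.07 in SA, was with PSMA8 the other member below the median feature of the array.

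CA piglet 4 had the highest value of all 12 piglets in 9 of the 40 genes and the lowest in 12, as it had in 25.1% and 16.4% of all genes. Lowest in this piglet were PSMA3, PSMA4, PSMA6, PSMC6, PSMD5, PSME3, UBE2N, UBE2J1, UBE2K, UBE2H, UBE2D3 and UBE2W. Highest were PSMA5, PSMC3, PSMG4, PSMF1, PSME1, UBE2B, UBE2D2, UBE2U and UBE2Q1, so that subunits of the same ring lay at opposite ends. CA piglet 1 and SA piglet 9 each had the lowest value in 8 of the 40 genes and the highest in 0, where they were lowest in 12.3% and 8.36% of all genes. SA piglet 11 had the highest value in 11 of the 40, among them 9 of the proteasome, and the lowest in 1, where it was highest in 9.18% of all genes. The whole proteasome list deviated from the mean of the 12 piglets by -0.16 in CA piglet 1 and by -0.11 in SA piglet 9, and by 0.10 in each of SA piglets 10 and 11, on the log2 scale. The mean of all genes deviated by -0.02 to 0.03 in the 12 piglets.

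**Figure D4:**
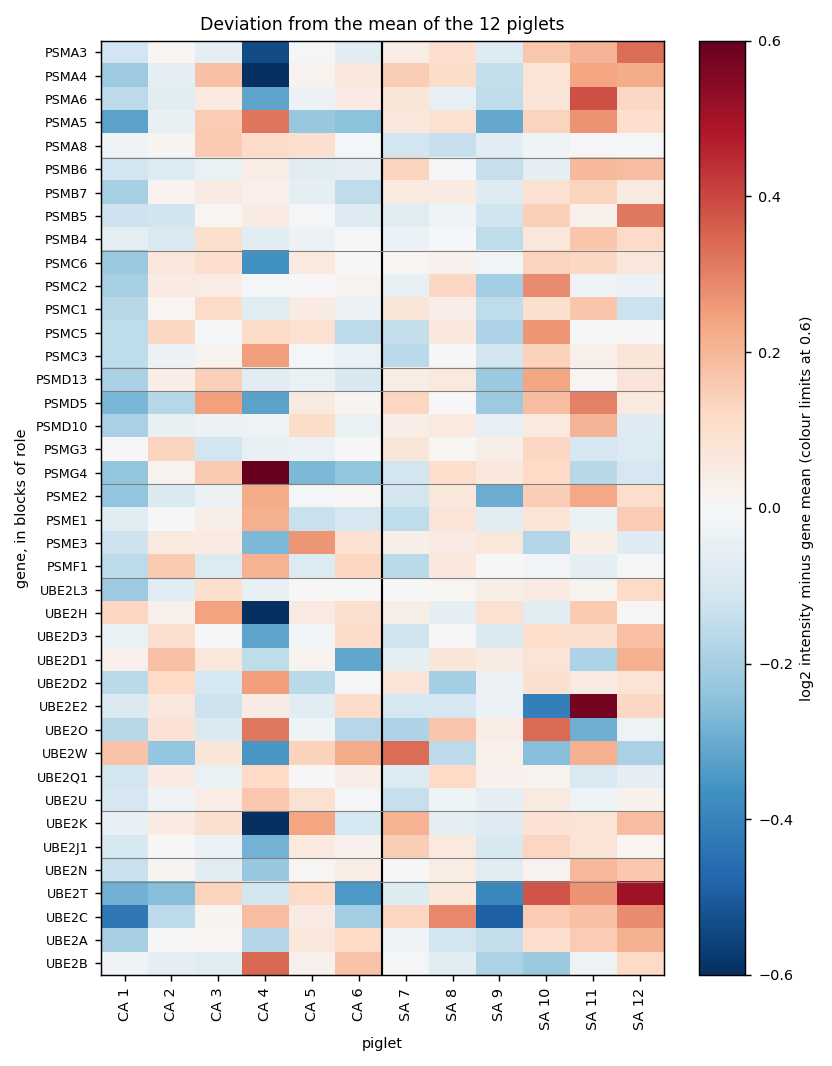
Log2 intensity of each gene minus its mean over the 12 piglets (colour, red above and blue below, limited at 0.6 either way) in blocks of role, with the CA piglets left of the line and the SA piglets right of it. CA piglet 4 holds both the deepest blue (PSMA4, UBE2K, UBE2H) and the deepest red (PSMG4) cells, and the columns of CA piglet 1 and SA piglet 9 are blue over most of the proteasome.

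Within the groups, genes of the proteasome varied together, though not only with each other. After the group means were taken off, the 253 pairs of proteasome genes had a median Pearson r of 0.33 over the 12 piglets, the 136 pairs of UBE2 genes one of 0.12, and all pairs of genes one of 0.01. An r above 0.5 was seen in 30.8% of the proteasome pairs, in 18.4% of the UBE2 pairs and in 10.0% of all pairs. Pairs of a proteasome gene with a UBE2 gene had a median r of 0.20, with 23.3% of them above 0.5. All pairs include those of dim genes, and pairs of bright genes alone were not compared. Within the 20S core without PSMA8 the median was 0.50, within the 6 genes of the cap 0.54, and between core and cap 0.40. These are descriptions without a test, and the 12 points share the arrays, the normalization and the cell makeup of each tissue piece. They also depended on CA piglet 4, and most were higher without it. The medians then were 0.45 in the proteasome genes, 0.13 in the UBE2 genes and 0.005 in all genes, and they were 0.68 in the core, 0.73 in the cap and 0.54 between them, with each pair of the core above 0.

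The pairs below with an r of 0.86 or above were the highest among all pairs of members, and the negative ones were among the lowest. They were picked by their r in these same data, so they do not show which genes belong together. How high or low the extremes of as many pairs of other genes lie was not counted. PSMA5 and PSMB7 of the core had an r of 0.89 (0.92 without CA piglet 4), PSMC2 and PSMD13 of the cap one of 0.86 (0.86), and PSMA6 and the chaperone PSMD5 one of 0.86 (0.83). PSMA3 and UBE2D3 had an r of 0.92 (0.82), and PSMA3 and PSMA4 one of 0.87, which was 0.64 without CA piglet 4. PSMA4 of the core and PSMC6 of the cap had an r of 0.88 (0.71), and PSMB5 and UBE2T one of 0.86 (0.88). The negative r of PSMG4 with UBE2H, -0.79, was -0.03 without this piglet, while that of UBE2O with UBE2W, -0.88, was -0.83. UBE2T and UBE2C varied with each other (0.75, and 0.80 without CA piglet 4) and with the markers of dividing cells, with median r of 0.77 and 0.72 over the 9 markers. The 20S core without PSMA8 had a median r of 0.54 with the same markers, against 0.50 within the core (0.67 and 0.68 without CA piglet 4). PSME1 and PSME2 had an r of 0.59 (0.41 without CA piglet 4). With PSMB9, PSME1 had an r of 0.36 (0.59) and PSME2 one of 0.47 (0.63). PSMC3 and UBE2U had an r of 0.93 (0.90), although UBE2U was near the background.

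**Figure D5:**
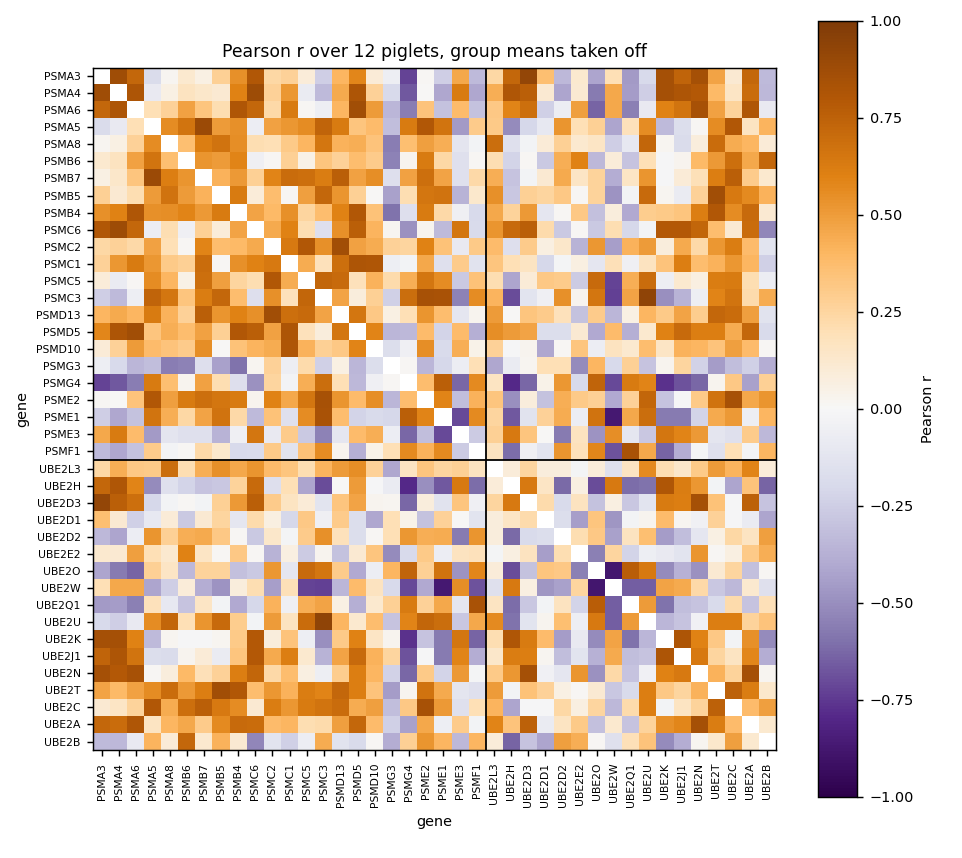
Pearson r between each pair of the 40 genes over the 12 piglets, after the mean of each group was taken off (colour, orange above 0 and purple below), in the order of the roles; the lines divide proteasome from UBE2 genes. Orange prevails within the proteasome block (median 0.33), except in the rows of PSMG3 and PSME3 (median -0.19 and -0.11 with the other proteasome genes), and both colours mix within the UBE2 block (median 0.12).

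Genes that act before and beside the proteasome but bear other names had no common side. Of 5 measured genes of activation and of related transfer steps, 3 were lower and 2 higher in CA by sign. Among them 0 had an unadjusted p under 0.05 from limma, against 3.28% of all genes. UBA7, the activating enzyme of the interferon-induced modifier ISG15, averaged 6.68 ± 0.43 in CA and 6.35 ± 0.26 in SA (SD, n = 6 each), a log2 fold change of 0.33 (standard error 0.18). ATG7, of autophagy, was at 0.09 (0.06), and UBA6, an activator of ubiquitin, at -0.11 (0.07). Of the ubiquitin and modifier genes 2 were measured, with UBB, a gene of ubiquitin itself, at 0.02 (0.12) and NEDD8, which activates cullin ligases, at -0.10 (0.09). Of 15 measured partners of the proteasome, 9 were lower and 6 higher, again with 0 at an unadjusted p under 0.05, against 3.28% of all genes. NFE2L1, the transcription factor known to raise proteasome genes when the complex is inhibited, averaged 10.17 ± 0.06 in CA and 10.06 ± 0.08 in SA, a log2 fold change of 0.11 (standard error 0.06). PAAF1, which holds back the joining of core and cap, was at 0.16 (0.09), and ZFAND2A, a stress-induced protein that binds the complex, at 0.35 (0.20). SEM1, a small subunit of the cap outside the PSM naming, was at -0.17 (0.12). In each of these lists 0 genes passed over all genes (adjusted p = 0.999 for the lowest, from limma).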

How the data were processed

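Total RNA of the oxyntic mucosa of 12 piglets was hybridized on Affymetrix porcine gene array strips, 1 array per piglet. The deposited tables hold linear intensities, which the authors made from CEL files with the Robust Multichip Analysis of Expression Console (version not given in the sources used here), which corrects background, normalizes arrays by quantiles and summarizes probes. Probe summaries of close relatives may share signal. Groups were read from the labels, and the number of unused sample columns is 0. Of 27558 features, 11982 had 1 gene symbol in the platform annotation, 373 several and 15203 none, and 2 symbols were updated. Intensities were converted to log2, the brightest feature per gene was kept, and 10910 genes were fitted with lmFit and eBayes of limma 3.58.1 in R 4.3.3, without covariates or filter. The scripts were tested on simulated data. Lists and correlations used Python 3.11.15, numpy 2.4.6 and pandas 2.3.3, and figures matplotlib 3.10.9.

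The members, gene lists and alternatives were chosen with earlier results of these data known. Named genes were the 10 proteasome and 10 UBE2 members with the smallest p, members without overlap, the 3 brightest, 3 dimmest and 4 most variable, and 1 further member per role; the other members are given briefly so that each is accounted for. Up to 3 genes of each pathway list with the smallest p were named, and SEM1 was added after its value was seen. As alternatives, arrays were weighted, centred on their medians or normalized by quantiles once more, features of a gene were averaged, dim features were removed, all features were adjusted together, the variance prior followed the mean intensity, and each piglet was left out. The number of arrays limits the precision. No sequence was used here.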

Additional observations from a re-analysis of the deposited data

Results flagged for a closer look

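In 6 of the 80 groups of 6 piglets (40 genes, CA and SA), 1 piglet lay far from the others by Dixon's ratio, the gap to the nearest piglet over the whole range, whose critical value is 0.625. For normally distributed values chance flags about 1 in 20 groups, or 4 of 80. CA piglet 4 was the lowest CA piglet in 3 of them, with PSMA3 at 8.79 against 9.21 in the next (ratio 0.769), UBE2H at 8.18 against 8.94 (0.783) and UBE2D3 at 10.1 against 10.3 (0.643), on the log2 scale. CA piglet 1 was the lowest CA piglet for PSMC2, at 8.87 against 9.05 (0.751). SA piglet 9 was the lowest SA piglet for UBE2C, at 8.75 against 9.37 (0.798), and for PSMA5, at 7.80 against 8.18 (0.647). The share of all genes flagged by this ratio was not counted, so these flags are not shown to be particular to the members. CA piglet 4 was the lowest of all 12 piglets in 16.4% of all genes and the highest in 25.1%.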

How the results depend on the processing

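The methods balance the groups by litter, body weight and sex. No analysis paired or blocked by litter or sex was possible, because neither is labelled per piglet. Under the 7 alternatives that kept all piglets and with each of the 12 piglets left out, 0 members passed after adjustment over all genes from limma. The number of proteasome genes lower in CA by sign was 16 to 20 and that of UBE2 genes 11 to 14. Of all genes, 47.2% to 55.7% were lower under the alternatives with all piglets (highest with median centring). With 1 piglet left out, 45.1% to 50.6% of all genes were lower. The median log2 fold changes were -0.09 to -0.03 in the proteasome genes and -0.08 to -0.03 in the UBE2 genes, against -0.01 to 0.01 in all genes. At an unadjusted p under 0.05 stood 1 proteasome gene without dim features (193 of all 6273 genes kept) and 1 with median centring (346 of all 10910 genes). With array weights 4 proteasome genes and 1 UBE2 gene did so (699 of all 10910 genes, against 358 without weights). With 1 piglet left out there were 1 to 4 proteasome genes and 0 to 2 UBE2 genes, where 243 to 672 of all 10910 genes stood at this p. The most were without SA piglet 9 (672 of all genes) and the fewest proteasome genes without CA piglet 4 or 5 or SA piglet 7, 8 or 12. The sign turned in 8 of 278 values under the alternatives with all piglets. With median centring PSMC3 became -0.0046, PSMC5 -0.0162 and UBE2W -0.00922. With array weights PSMC3 became -0.0164, PSMC5 -0.00166, PSMG4 -0.0731, UBE2E2 0.000558 and UBE2H 0.0372. It turned in 38 of 480 values with 1 piglet left out, in 14 genes, whose ranges were -0.0777 to 0.0203 for PSMC2, -0.0353 to 0.0456 for PSMC3, -0.035 to 0.0557 for PSMC5, -0.0634 to 0.0102 for PSME1, -0.0273 to 0.0799 for PSME3, -0.0479 to 0.00355 for PSMG3, -0.0981 to 0.0861 for PSMG4, -0.0996 to 0.000759 for UBE2D1, -0.0742 to 0.00885 for UBE2D2, -0.101 to 0.0961 for UBE2E2, -0.114 to 0.0802 for UBE2H, -0.0781 to 0.0533 for UBE2O, -0.000748 to 0.0476 for UBE2Q1 and -0.0412 to 0.0796 for UBE2W. The cause was not tested. PSMA8 and UBE2U have no value without dim features.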
